A study of Mus musculus with 4 samples.

Results

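At the neuromuscular synapse, acetylcholine released by a motor axon opens a pentameric ion channel in the muscle membrane. The channel is built of alpha, beta, delta and either gamma (in the embryo and after denervation) or epsilon (in adult innervated muscle) subunits. Its clustering depends on agrin, a proteoglycan that binds the receptor Lrp4 and thereby activates the kinase MuSK, with Dok7 as an adaptor inside the cell and rapsyn as the scaffold that holds the receptors. Many of these genes carry E-boxes, the binding sites of the myogenic basic helix-loop-helix (bHLH) factors such as MyoD, in their promoters. Growing muscle progenitors, which have no nerve contact in culture, can transcribe several of them. The genes described here are 10: the receptor subunits Chrna1, Chrnb1, Chrnd, Chrng and Chrne, and Musk, Dok7, Rapsn, Lrp4 and Agrn. They were taken by name, each as the brightest probe set whose annotation gave that symbol alone, out of 19938 genes measured. Each had exactly 1 such probe set, so all 10 were measured and tested.

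The cells were adult mouse mesoangioblasts (AdmMABs), vessel-associated progenitors from the tibialis anterior muscle of male C57/BL6 mice, kept as a polyclonal, proliferating population in serum-rich medium. A first population had been transduced with a lentiviral short hairpin RNA against PW1 (shPW1, encoded by Peg3), and the other with a scrambled control hairpin (Ctl). RNA was extracted separately 2 times from each population, and each of the 4 extractions (2 shPW1 and 2 Ctl) was hybridized to a separate Mouse Gene ST array (Affymetrix). Replicates are thus extractions of the same transduced cells, so p-values measure a spread that may be technical. A single hairpin was used, and the vector of the control cells on the arrays was not named with it, so loss of PW1, an effect of this hairpin on other transcripts and any difference of vector cannot be told apart. Values are log2 expression after RMA, a method that equalizes the distribution of the arrays, and changes are shPW1 minus Ctl. No detection call or depth was given, and the number of arrays limits the precision.

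Peg3 stood at log2 6.22 and 6.47 in the shPW1 arrays, against 8.67 and 8.70 in the Ctl arrays, a difference of -2.34 (limma, adjusted p = 0.00428). Of the 10 listed mesoangioblast and pericyte markers, 9 had a group mean above the 95th percentile (log2 4.95) of 1035 probe sets for odorant receptors, genes used here as a measure of unspecific signal and chosen after the values were seen. By the same measure, 1 of 5 endothelial and 2 of 5 leukocyte markers lay above it, and 0 of either list were called by limma (0 and 1 at an unadjusted p under 0.05). Of the mesoangioblast markers, 4 were themselves lower and 1 was higher in shPW1 by limma, and the level of the list averaged 7.49 to 7.52 in shPW1, against 7.67 to 7.71 in Ctl.

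Promoter sequences are shown for 3 receptor subunits that differed in their change, Chrna1 and Chrng, which fell, and Chrnb1, which did not pass the test. They were chosen with these changes known. They are RefSeq sequence of build GRCm38.p6, written 5′ to 3′ on the strand of the gene, in lower case with E-boxes in capitals. Each stretch ends just before the first annotated base of the gene in the RefSeq gene table, which for Chrnb1 lies upstream of the start site of the promoter table. It is chr2:73580339-73580588 on the minus strand for Chrna1, chr1:87205561-87205810 on the plus strand for Chrng and chr11:69795967-69796187 on the minus strand for Chrnb1.
Chrna1: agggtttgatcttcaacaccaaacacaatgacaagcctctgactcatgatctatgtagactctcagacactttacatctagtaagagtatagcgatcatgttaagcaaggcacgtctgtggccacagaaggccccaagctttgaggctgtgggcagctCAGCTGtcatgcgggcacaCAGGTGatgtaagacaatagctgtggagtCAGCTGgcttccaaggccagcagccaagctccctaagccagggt
Chrng: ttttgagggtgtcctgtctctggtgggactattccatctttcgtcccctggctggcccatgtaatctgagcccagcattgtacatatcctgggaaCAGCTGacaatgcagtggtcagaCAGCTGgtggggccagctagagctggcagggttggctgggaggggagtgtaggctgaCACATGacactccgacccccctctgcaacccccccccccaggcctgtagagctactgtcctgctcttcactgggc
Chrnb1: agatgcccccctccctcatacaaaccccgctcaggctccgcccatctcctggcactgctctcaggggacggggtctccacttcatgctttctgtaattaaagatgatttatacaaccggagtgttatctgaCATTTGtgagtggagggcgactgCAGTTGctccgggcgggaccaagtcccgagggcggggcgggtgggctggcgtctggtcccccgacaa
The Chrna1 stretch held 3 E-boxes, of which the outer 2 were CAGCTG, a form that MyoD is known to bind well. The Chrng stretch also held 3, and the 2 farthest from the gene were CAGCTG. The Chrnb1 stretch held 2 E-boxes, neither of that form, and a further one of another form began 29 bases before its start site, beyond the stretch printed.

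Of the 10 genes, 7 had an entry in the promoter table, with 9 windows of 250 bases before and 50 bases after a start site (Dok7 and Agrn had 2 windows each, and Chrnd, Rapsn and Lrp4 were not listed). The letters searched on both strands were CANNTG for an E-box, which includes CAGCTG, then CAGCTG alone, and CCGGAA for the N-box bound by Ets factors in synaptic genes. The N-box overlaps neither. An E-box was found in 7 of the 9 windows, and in 72.3% of all 32851 promoter windows. CAGCTG was found in 4 windows, those of Chrna1, Chrng, Chrne and Musk, and in 16.3% of all windows. In Chrna1 it began 92 and 44 bases before the start site, in Chrng 155 and 132, in Chrne 138 and in Musk 68. Only the Chrne window held an N-box (14.9% of all windows). Chrne, with CAGCTG in its window, did not pass the test for a change, while Agrn, with none in either window, was lower. These are matches of letters only, and the windows are short. Their part in the changes was not tested.

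**Figure D1:**
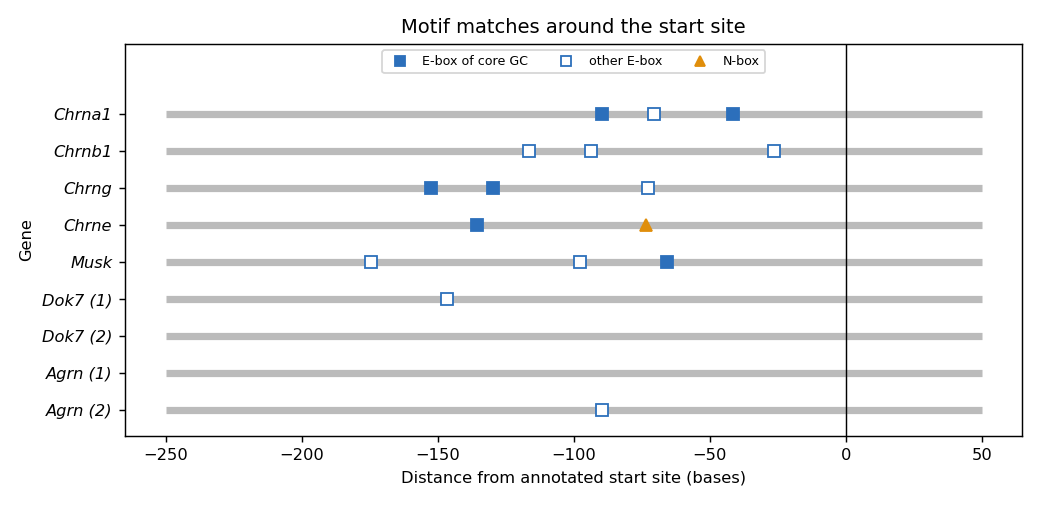
Matches in each promoter window, with distance from the annotated start site in bases on the horizontal axis and the gene on the vertical axis (2 windows for Dok7 and Agrn). Filled squares are CAGCTG E-boxes, open squares other E-boxes and the triangle an N-box. CAGCTG matches lie in 4 windows, all before the start site.

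In shPW1 AdmMABs, 5 of the 10 genes were lower: the receptor subunits Chrna1 and Chrng, and Agrn, Lrp4 and Musk of the clustering pathway. None was higher by limma, where 1 gene, Chrnb1, had an unadjusted p under 0.05 in that direction, as did 3079 of all 21789 probe sets. The log2 fold changes of those 5 ran from -0.66 to -0.42. A call was an adjusted p under 0.05 after Benjamini-Hochberg adjustment over 21789 probe sets, and over all of them 4.17% were called lower and 4.93% higher. The median of the 10 log2 fold changes was -0.32, against -0.01 over all genes. Of the 10, 8 lay below 0 and 2 above it, beside 10560 below and 9375 above of all 19938 genes. The arrays of the groups did not overlap for 8 of the 10 genes, and for 55.5% of all probe sets. In a culture, fewer cells of a type and less RNA per cell cannot be told apart by these values.

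**Figure D2:**
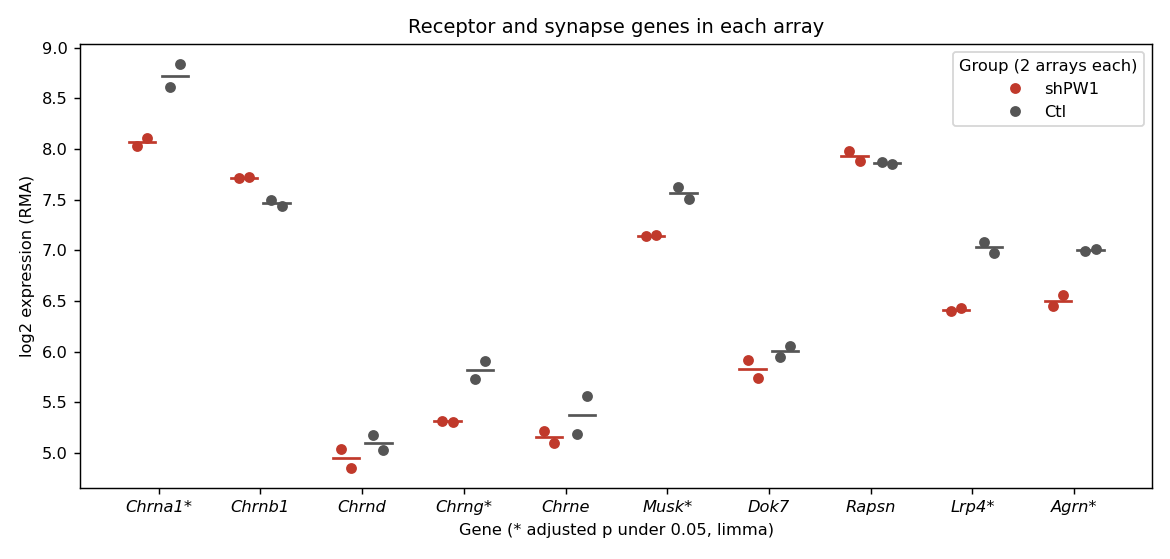
Log2 expression (vertical axis) of each of the 10 genes (horizontal axis) in every array. Points are arrays, 2 shPW1 in red and 2 Ctl in grey, short lines are group means, and a star marks an adjusted p under 0.05. Both shPW1 points lie below both Ctl points for the 5 starred genes and for Dok7, and above them for Chrnb1 and Rapsn.

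Chrna1 (probe set 10483706) encodes the alpha subunit, which holds most of the acetylcholine binding site and is present as a pair in the channel. Its log2 expression was 8.03 and 8.11 in the shPW1 arrays, against 8.61 and 8.84 in the Ctl arrays. The groups were separated by a gap of 0.50, larger than the distance between the 2 arrays of either group. The difference on the log2 scale was -0.66 (SE 0.10, adjusted p = 0.0285), or 1.57-fold lower in shPW1 on the linear scale. It was the lowest value among the 10 genes, and 235 of the 19938 genes had a lower one. Leaving out Ctl replicate 2, the higher of the Ctl arrays, brought it to -0.54.

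Chrng (probe set 10348166) encodes the gamma subunit, which marks the embryonic form of the receptor. Its log2 values were 5.32 and 5.30 in shPW1, against 5.74 and 5.91 in Ctl. Both shPW1 arrays lay below both Ctl arrays, and the shPW1 arrays lay closer to each other than the Ctl arrays did. A log2 fold change of -0.51 resulted (SE 0.08, adjusted p = 0.0325), 1.43-fold lower in shPW1. The probe set was dim: 98.6% of the odorant receptor probe sets lay below its mean, so the size of the change is less certain than for Chrna1, for which 100% did.

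Chrne (probe set 10387909) encodes the epsilon subunit, which replaces gamma as the synapse matures. It had 5.22 and 5.10 in shPW1, against 5.19 and 5.56 in Ctl. Here the groups overlapped, and Ctl replicate 2 stood above the other 3 arrays. This probe set was dim as well, with 97.6% of the odorant receptor probe sets below its mean. The change of -0.21 (SE 0.14, adjusted p = 0.395) did not pass the test, its 95% confidence interval ran from -0.58 to 0.15, and without Ctl replicate 2 it was -0.03.

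Chrnd (probe set 10348150) encodes the delta subunit and is the direct neighbour of Chrng on chromosome 1 in the RefSeq gene table. Its levels were 5.04 and 4.86 in shPW1, against 5.17 and 5.03 in Ctl, and the groups overlapped narrowly. Its log2 fold change of -0.15 (95% confidence interval from -0.40 to 0.09, adjusted p = 0.373) did not pass. Chrnd was the dimmest probe set of the 10 against the odorant receptors, with 95.9% of them below its mean. The interval of Chrne includes the change measured for Musk, -0.42, and that of Chrnd ends just short of it.

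Chrnb1 (probe set 10387625) encodes the beta subunit. It had 7.71 and 7.73 in shPW1, against 7.50 and 7.44 in Ctl, so both shPW1 arrays were above both Ctl arrays. On the log2 scale the difference of 0.25 (SE 0.06, adjusted p = 0.0706, 95% confidence interval from 0.10 to 0.40) missed the threshold. Chrnb1 was called higher by limma in 2 alternatives, with only the brighter probe sets tested (adjusted p = 0.01) and with a prior that follows the level (adjusted p = 0.018). Those settings called many more probe sets higher than the main one, 2505 of 10895 and 2735 of 21789. Over all alternatives other than left-out arrays its adjusted p lay between 0.01 and 0.163. Its sign was opposite to that of the 4 other subunits, also after further normalization.

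**Figure D3:**
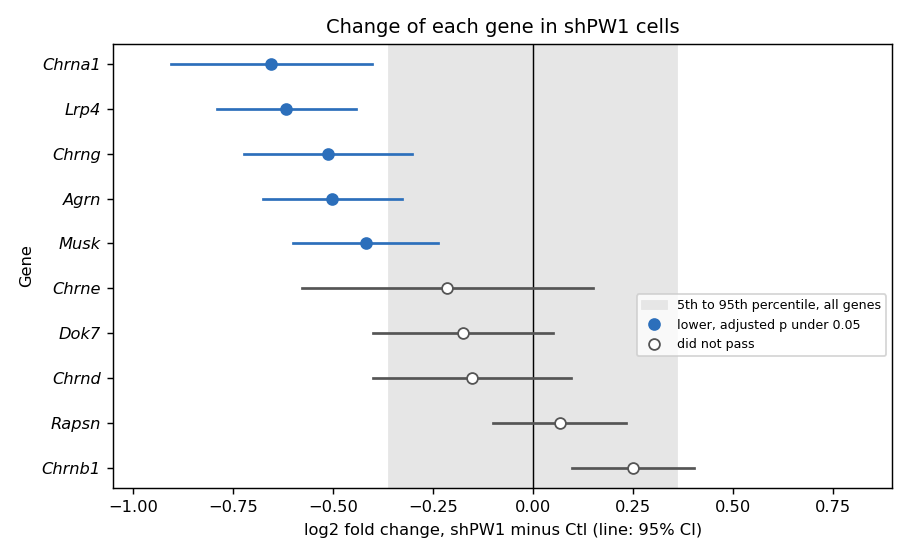
Log2 fold change of shPW1 minus Ctl (horizontal axis) for each of the 10 genes (vertical axis), with its 95% confidence interval as a line. Filled points passed the test, open points did not, and the grey band spans the 5th to the 95th percentile of all genes (-0.36 to 0.36). The 5 filled points lie to the left of the band.

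Agrn (probe set 10519270) encodes agrin, the nerve-derived organizer of the synapse, which muscle cells also make. Its log2 expression was 6.45 and 6.56 in shPW1, against 6.99 and 7.01 in Ctl. The gap between the groups was 0.44, with the 2 Ctl arrays almost equal. This is a log2 difference of -0.50 (SE 0.07, adjusted p = 0.0236), 1.42-fold lower in shPW1. The splice forms of agrin, which differ in activity, are not separated by this probe set annotation.

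Lrp4 (probe set 10473880) encodes the low-density lipoprotein receptor family member that binds agrin. It had 6.40 and 6.43 in shPW1, against 7.09 and 6.98 in Ctl, the widest gap of the 10 genes at 0.55. The change of -0.62 (SE 0.07, adjusted p = 0.0167), 1.53-fold lower in shPW1, had the smallest adjusted p of the 10. With 1 array left out it stayed between -0.67 and -0.56.

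Musk (probe set 10505145) encodes the muscle-specific receptor kinase. Its levels were 7.14 and 7.16 in shPW1, against 7.63 and 7.50 in Ctl, with nearly equal shPW1 arrays. The groups differed by -0.42 on the log2 scale (SE 0.07, adjusted p = 0.0348), 1.34-fold lower in shPW1. Among the genes called, it had the smallest change and the largest adjusted p.

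Dok7 (probe set 10521371), the adaptor that activates MuSK from inside the cell, had 5.91 and 5.74 in shPW1, against 5.95 and 6.06 in Ctl. The groups did not overlap, but the gap of 0.04 was smaller than the distance between the arrays of either group. Its log2 fold change of -0.18 (95% confidence interval from -0.40 to 0.05, adjusted p = 0.274) did not pass the test. Rapsn (probe set 10473783), which encodes rapsyn, had 7.98 and 7.89 in shPW1, against 7.87 and 7.86 in Ctl. Again the gap was small, at 0.01, and the log2 fold change of 0.07 (adjusted p = 0.564) did not pass. Its 95% confidence interval, from -0.10 to 0.23, does not reach the -0.42 measured for Musk.

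At the thresholds of the methods (a fold change over 1.2 and p under 0.05 in an analysis of variance), the same 5 genes were lower and 0 of the 10 were higher, beside 5.35% of all probe sets lower. With any 1 array left out, 0 of all 21789 probe sets passed limma in either direction, Peg3 included (adjusted p between 0.0795 and 0.112), so fits of 3 arrays say nothing about how stable the calls of the 10 genes are. No sign of the 10 turned in these fits. A turn was possible only for Chrnd and Chrne, whose groups overlapped, as without overlap a left-out array cannot change the sign. Among the 10 genes, 0 were called when all 35556 rows were tested (adjusted p between 0.0798 and 0.112 for the 5).

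**Figure D4:**
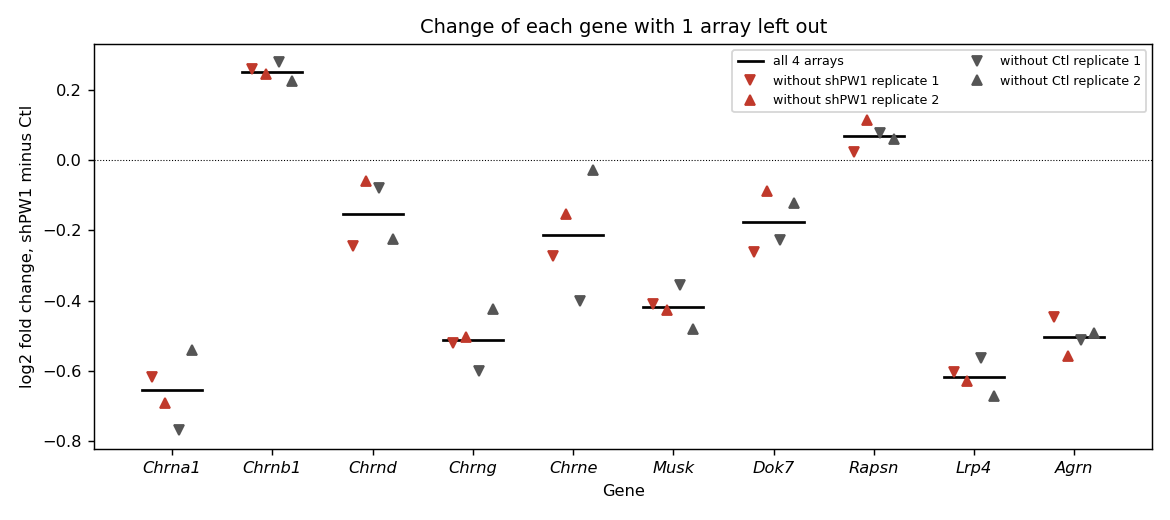
Log2 fold change of shPW1 minus Ctl (vertical axis) for each of the 10 genes (horizontal axis), with all 4 arrays (black line) and with 1 array left out (triangles, red for a shPW1 and grey for a Ctl array left out). Every triangle lies on the same side of 0 as its line, and Chrne comes closest to 0, at -0.03 without Ctl replicate 2. For genes whose groups did not overlap, the side was fixed in advance.

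Of 10 myogenic bHLH factors and cofactors, 3 were lower, 0 were higher by limma (1 at an unadjusted p under 0.05) and 7 did not pass. MyoD (Myod1) itself stood at 7.46 and 7.27 in shPW1, against 9.08 and 9.09 in Ctl, a difference of -1.72 (adjusted p = 0.00503). By quantitative PCR, the paper reports MyoD transcripts as present, and rising in differentiation, with or without the PW1 hairpin. It describes a marked decrease of MyoD protein. The arrays were not compared with those assays. Myogenin (Myog), which drives terminal differentiation, had 5.55 and 5.35 in shPW1, against 6.13 and 6.20 in Ctl, and was lower by 0.71 (adjusted p = 0.0223). The E protein Tcf4, a dimer partner of these factors, changed by -0.61 (adjusted p = 0.0134). Myf5, an early myogenic factor, had 9.04 and 9.01 in shPW1, against 8.92 and 8.84 in Ctl, and its log2 fold change of 0.15 (adjusted p = 0.213) did not pass. Myf6, the fourth member of the family, differed by -0.05 (adjusted p = 0.785), and this sign turned in 3 alternatives. Among 15 inhibitors and competitors of bHLH factors, Id2 (-0.49) and the repressor Snai2 (-0.32) were lower, the repressor Snai1 (0.45) was higher and 12 did not pass. Their part in the changes of the receptor and synapse genes was not tested.

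Other genes known as targets of MyoD in early differentiation were measured for 19 of 20 listed. Of these, 5 were lower, 0 were higher by limma (0 also at an unadjusted p under 0.05) and 14 did not pass, with a median log2 fold change of -0.28. The fusion protein gene Mymk had a log2 fold change of -0.66, M-cadherin (Cdh15) -0.64, desmin (Des) -0.55 and cardiac actin (Actc1) -0.49. Myl4 (-0.31), an embryonic myosin light chain, was also called, and is named here with its value already known. Of the 10 markers of differentiated muscle cells, 2 were lower (Myog and Mymk) and 0 were higher by limma (0 also at an unadjusted p under 0.05). Their mean log2 level was 5.61 to 5.76 in shPW1, against 5.86 to 5.96 in Ctl. The embryonic myosin Myh3, also named after its values were seen, had 4.65 and 4.57 in shPW1, against 4.76 and 4.86 in Ctl, below the odorant receptor limit of 4.95 in every array, and its log2 fold change of -0.20 (adjusted p = 0.153) did not pass. Of the 9 satellite cell and myoblast markers, 2 were lower (Myod1 and Cdh15) and 2 were higher (Sdc4 and Vcam1, named after their values were seen). Of 5 measured fibroblast and mesenchymal progenitor markers, all above the odorant receptor limit, 2 were lower and 0 were higher by limma (0 also at an unadjusted p under 0.05), and their mean log2 level was 8.55 to 8.58 in shPW1, against 8.90 to 8.93 in Ctl. Of 5 measured Schwann cell markers 0 were called by limma, and 1 was lower at an unadjusted p under 0.05. The part of these cell types in the changes of the receptor and synapse genes was not tested.

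The nicotinic subunits of neurons and the muscarinic receptors gave 0 calls among 16 genes by limma (0 also at an unadjusted p under 0.05), with a median log2 fold change of -0.02. Chrna6 had the highest value, 0.42 (95% confidence interval from -0.05 to 0.89, adjusted p = 0.22), and Chrna4 the lowest, -0.24 (adjusted p = 0.218), both named after their values were seen. Of the 16, 5 had a mean above the odorant receptor limit of 4.95 in at least 1 group, as did all 5 muscle subunits. Chrna6 lay below this limit in every array, and Chrna4 above it.

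Of 15 genes of the synaptic cleft and basal lamina, 2 were lower and 0 were higher by limma, while 1 was higher at an unadjusted p under 0.05. Lamb2, which encodes the laminin beta chain concentrated at the synapse, had a log2 fold change of -0.39, with an adjusted p = 0.0348, and Lama5, a laminin alpha chain found there, of -0.57, with an adjusted p = 0.0192. Acetylcholinesterase (Ache, -0.08, adjusted p = 0.82) and its collagen tail (Colq, -0.14, adjusted p = 0.562) did not pass, nor did dystroglycan (Dag1, -0.26, adjusted p = 0.0772). These 3 were named after their values were seen.

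Among genes that act downstream of MuSK or on its cytoskeletal anchorage, 5 of 22 measured were higher and 1 was lower. The adaptor Crkl, which binds phosphorylated Dok7, had a log2 fold change of 0.47, the tyrosine kinases Src 0.39 and Abl1 0.34, and the MuSK-binding co-chaperone Dnaja3 0.38. Fyn, a kinase related to Src, was also higher (0.31) and the adaptor Dok1 was lower (-0.33). All 6 serve many receptors besides MuSK. Their adjusted p lay between 0.026 and 0.04995. With all rows tested 0 of the 22 were called in either direction, with array medians subtracted 0 were lower and 6 higher, and with the trended robust prior 9 were higher. Fyn and Dok1 were named after their values were seen.

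In the dystrophin and utrophin scaffold, 1 of 9 measured genes was higher, alpha-dystrobrevin (Dtna, 0.45, adjusted p = 0.0251), while utrophin (Utrn), named after its value was seen, differed by -0.02 (adjusted p = 0.881). None of the 9 was lower by limma, and 1 was at an unadjusted p under 0.05. Among 15 genes of neuregulin signalling and synaptic transcription, 2 were higher and 0 were lower by limma (3 at an unadjusted p under 0.05). Both encode Ets factors: Etv4 was higher by 0.80 on the log2 scale (adjusted p = 0.0102) and Etv5, which is enriched at synapses in muscle, by 0.54 (adjusted p = 0.0427). The N-box factor Gabpa had 0.26 (adjusted p = 0.0818) and neuregulin itself (Nrg1) -0.31 (adjusted p = 0.0529), neither past the threshold and both named after their values were seen. Of 10 measured ligands and partners of Lrp4, its relatives Lrp5 (-0.39) and Lrp6 (-0.36), both co-receptors for Wnt, were lower and 0 were higher by limma (0 also at an unadjusted p under 0.05). The 5 glycosylation genes mutated in human congenital myasthenia gave 0 calls by limma, with 1 of them lower at an unadjusted p under 0.05.

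**Figure D5:**
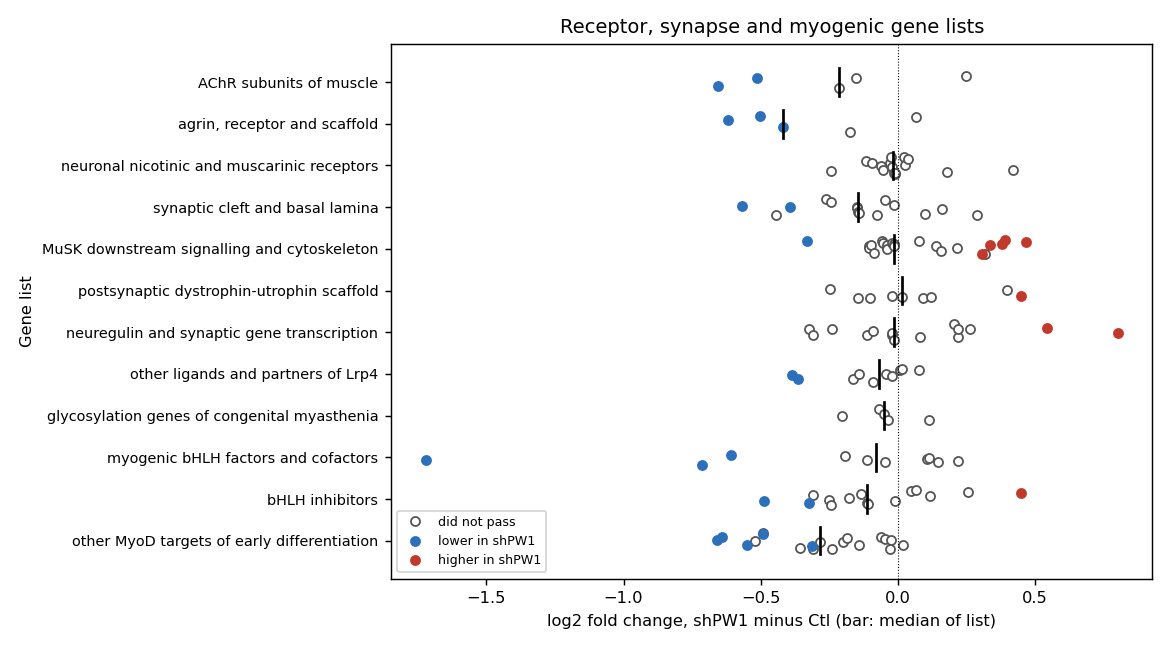
Log2 fold change of shPW1 minus Ctl (horizontal axis) for each measured gene of 12 lists (vertical axis), blue where lower, red where higher and open where the test was not passed, with the median of the list as a black bar. The muscle receptor subunits and the agrin pathway have 5 lower and 0 higher genes, and Myod1 lies farthest left at -1.72.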

How the data were processed

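The authors used RMA of Partek Genomics Suite (6.4 per the submitters' processing notes), which corrects background, equalizes arrays and summarizes probes, and the deposited values are log2 expression after it. These steps were not repeated. The table had 35556 rows. Tests covered the 21789 probe sets annotated with 1 symbol, leaving out 12146 with none and 1621 with several. Symbols were updated through the RefSeq gene table (GRCm38.p6) for 21698 of them. limma 3.58.1 (lmFit, eBayes; R 4.3.3) compared shPW1 with Ctl on 4 arrays (2 residual and 2.72 prior degrees of freedom), two-sided, with Benjamini-Hochberg adjustment over all probe sets tested and a threshold of 0.05. The script was tested on simulated data. The 10 members and the 20 lists of genes and markers were chosen with earlier results of these data known. The text names all members, Peg3, the 4 myogenic bHLH factors and up to 4 called genes of each pathway list with the largest change, and says where it names others. Arrays with the same replicate number were checked for pairing: their deviations from the group means correlated at -0.105 and no label ties them, so the main comparison has no block. Alternatives were all rows, only the brighter probe sets, further normalization, the methods' analysis of variance, a trended robust prior, a replicate block and each array left out. Promoter windows came from RefSeq sequence, and motifs were matched as letters.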

Additional observations from a re-analysis of the deposited data

How the results depend on the processing

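The 5 genes called lower (Chrna1, Chrng, Agrn, Lrp4 and Musk) kept their sign under every alternative that tested them, and so did the 5 others. Only further normalization and left-out arrays could change a log2 fold change, as the other alternatives altered the test alone. With 1 array left out, a sign could not turn for genes whose groups did not overlap. These 5 lower genes were also called after a second quantile normalization and after subtraction of array medians. The trended robust prior and the methods' own thresholds gave the same 5. When dim probe sets (mean log2 under 6.05) were left out, 4 of the 6 genes left were lower. In that setting 1799 of the 10895 probe sets tested were lower and 2505 higher. Chrnb1 was then the 1 gene called higher, as with the trended robust prior (also 1 higher). The count of lower genes was 0 with all rows tested and 0 after adjustment of the analysis of variance. At an unadjusted p under 0.05 it was 5 in each. By that measure 3416 of all 35556 rows were lower by limma, and 2114 of 21789 probe sets in the analysis of variance. No label ties same-numbered arrays. With the replicate number as a block 2 genes were lower (Chrna1 and Lrp4). With the crossed pairing, added after seeing the data, 0 were. At an unadjusted p under 0.05 that pairing gave 6, beside 3009 of 21789 probe sets lower. Over all probe sets, 1075 were called higher and 908 lower. The counts were 2505 higher and 1799 lower without dim probe sets, 36 and 50 with all rows, 2735 and 1978 with the trended robust prior, 1 and 1 in the adjusted analysis of variance, 256 and 258 with the replicate block, 213 and 224 with the crossed pairing and 0 and 0 with any 1 array left out. Subtracting array medians gave 1627 higher (68.2% of calls, against 54.2%) and 759 lower, and moved the median log2 fold change of all probe sets to 0.05, against -0.01. The sign of Myf6 turned with array medians subtracted (0.011), without shPW1 replicate 1 (0.036) and without Ctl replicate 1 (0.011), and with 1 array left out its log2 fold change ran between -0.132 and 0.0365. Over the 136 measured genes of the 10 other pathway lists, 9 were called higher and 15 lower, beside 4.93% and 4.17% of all probe sets. These counts were 17 and 21 without dim probe sets, 0 and 1 with all rows, 13 and 13 with array medians subtracted, 20 and 25 with the trended robust prior, 0 and 0 in the adjusted analysis of variance, 1 and 3 with the replicate block (0 of the MuSK downstream genes), 1 and 5 with the crossed pairing and 0 and 0 with any 1 array left out. The cause of these differences was not tested. Each of the 10 receptor and synapse genes had 1 probe set, so no other choice of probe set could be run for them.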

Other observations

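Among the 7 neuronal genes listed as markers, 2 were lower and 0 were higher in shPW1 by limma (0 also at an unadjusted p under 0.05 in that direction). The larger change was that of Slc5a7, which encodes the high-affinity choline transporter that supplies choline for acetylcholine synthesis, and which, like the other genes named here, was chosen after its value was seen. Its log2 values were 4.21 and 4.43 in the shPW1 arrays, against 6.37 and 6.33 in the Ctl arrays, a difference of -2.03 (SE 0.09, limma adjusted p = 0.00462). Both shPW1 arrays lay below the odorant receptor limit of 4.95 and both Ctl arrays above it, so the size of the change is uncertain. Tubb3, a neuronal tubulin also found in other growing cells, had 5.69 and 5.90 in shPW1, against 6.48 and 6.45 in Ctl, a difference of -0.67 (adjusted p = 0.0245). Choline acetyltransferase (Chat) was at 4.50 and 4.51 in shPW1, against 4.59 and 4.49 in Ctl, and did not pass the test (log2 fold change -0.03, adjusted p = 0.792). The synaptic vesicle genes Snap25 (-0.21) and Syt1 (0.01) did not pass either. Chat, Snap25 and Syt1 lay below the odorant receptor limit in every array, so their results say little. Stmn2, well above that limit, had a log2 fold change of -0.33 and did not pass (limma adjusted p = 0.0644).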
